A study of Mus musculus with 26 samples.

Results

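The Wnt pathway genes described here were 47 genes chosen by symbol, covering ligand release, receptors, cytoplasmic transducers, the β-catenin destruction complex and nuclear partners. One transcript each of 39 of the 47 was found by symbol among the 10104 transcripts listed for murine oligodendrocyte progenitor cells (OPCs), oligodendrocytes (OLs) or both. Of the 39, 34 were listed in OPCs and 37 in OLs, and 32 were listed in both, against 8177 of all transcripts. Dvl3, Tcf7l1, Porcn, Nkd1 and Ror2 were listed in OLs alone, and Lrp5 and Tcf7 in OPCs alone. Fzd6, Lef1, Tle2, Aes, Notum, Ror1, Wif1 and Dkk3 were listed under these symbols for neither cell type. Aes is listed under its present symbol, Tle5, which the choice by symbol did not take in. The lowest 0 h value in the lists was 1.00 FPKM, so a gene not found by symbol was below that level, listed under another name or left out for another reason, and has no value among the members.

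The study followed labelled RNA through a chase. OPCs of strain 129S/SvEv had been derived from epiblast stem cells and were grown with bFGF and PDGFA. OLs came from such OPCs after 2 passages without bFGF. They were differentiated for 40 h with thyroid hormone (T3), noggin, IGF-1, cyclic AMP and NT3 before labelling. All cultures then took up 5-ethynyl uridine (5-EU), a uridine analogue to which biotin can be coupled, for 24 h. After its replacement by uridine, labelled RNA was pulled down at 0, 1, 2, 4 and 6 h from 3 OPC and 2 OL replicates, described as biological replicates. All were cultured cells of 1 strain, and the OL cultures are described as keeping some undifferentiated OPCs.

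Wnt proteins are secreted lipid-modified ligands that bind Frizzled receptors together with the co-receptors LRP5 and LRP6. Binding recruits Dishevelled and stops a cytoplasmic complex of Axin, APC, GSK3 and casein kinase 1 from marking β-catenin for destruction, so that β-catenin enters the nucleus and acts with TCF/LEF factors. In the oligodendrocyte lineage the pathway is known for its part in holding or timing differentiation.

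Labelled RNA at 0 h is RNA made during the labelling period and still present, so its level is set by both synthesis and decay and is not the total RNA level. FPKM (fragments per kilobase of transcript, relative to all mapped fragments) summed to between 391712 and 432287 in the OPC 0 h libraries and to between 342224 and 350563 in those of OLs, and the read depth is unknown. The 0 h values were read as FPKM not scaled to spike-ins, and that reading was not tested. Of 10 oligodendrocyte markers, 2 were listed in OPCs (summed 0 h level 37.6 to 55.1 FPKM) and 10 in OLs (2966 to 6412 FPKM). All 6 OPC markers were listed in both cell types, at 528 to 643 FPKM in OPCs and 779 to 859 FPKM in OLs, but not in 1 direction. Gpr17 (5.00 to 6.61 FPKM in OPCs and 299 to 323 FPKM in OLs), Pdgfra and Sox10 were above OPCs in OLs, and Olig2 (316 to 332 and 190 to 218 FPKM) and Cspg4 (35.7 to 55.7 and 29.9 to 30.7 FPKM) below, with no overlap, while Ptprz1 overlapped. Astrocyte markers were listed for 3 of 6 genes in OPCs (379 to 461 FPKM) and 5 of 6 in OLs (344 to 481 FPKM). Of these, Slc1a2 was 22.9 to 37.0 FPKM in OPCs and 77.4 to 95.7 FPKM in OLs, and Slc1a3 was 179 to 224 and 95.5 to 155 FPKM. Neuron markers were listed for 3 of 6 (83.3 to 189 FPKM) and 4 of 6 (200 to 215 FPKM). None of the 5 microglial, 4 endothelial and mural or 3 pluripotency markers was listed. The part of these other cells in the results below was not tested.

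The 3 largest differences at 0 h were in Frizzled receptors, and the coding sequence that gives the group its link to Dishevelled is shown first. A Lys-Thr-x-x-x-Trp motif inside the cell, at the end of the last membrane helix, is the known docking site for Dishevelled. Its codon pattern was found once in each of the 8 listed Frizzled coding sequences and in 260 of all 10104 coding sequences (2.57%). The study asked how codons bear on RNA decay, with attention to the Phe codons UUU and UUC and the Lys codons AAA and AAG, so the Lys codon of the motif is in capitals in the 7 Frizzled sequences printed (GRCm38, GENCODE annotation, coding strand, all exonic and coding).
Fzd1 (chr5:4755700-4755729, minus strand): tccggcAAGacactgaattcctggaggaag
Fzd2 (chr11:102606367-102606396, plus strand): tccggcAAGacactgcactcgtggaggaag
Fzd3 (chr14:65212101-65212130, minus strand): agcaaaAAGacatgctttgaatgggccagt
Fzd4 (chr7:89408235-89408264, plus strand): tctgccAAAactcttcacacgtggcaaaag
Fzd5 (chr1:64735005-64735034, minus strand): tccggcAAGactctggagtcttggcggcgg
Fzd7 (chr1:59484601-59484630, plus strand): tcgggcAAGaccctgcagtcatggcgtcgc
Fzd9 (chr5:135249410-135249439, minus strand): agttccAAGacttttcagacttggcagagc

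Fzd4 alone of the 7 used AAA for that lysine, and the other 6 used AAG. Fzd3 and Fzd9, the receptors that led the Frizzled pool in OLs and OPCs respectively, had unlike Phe codons, and for each the stretch of 10 codons with the most Phe codons is shown with those codons in capitals.
Fzd3 (chr14:65235646-65235675, minus strand): tctgccacattgTTTactTTTttaaccTTT
Fzd9 (chr5:135250274-135250303, minus strand): tgtTTCTTCtccacggccTTCaccgtgTTC

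The Fzd3 stretch held 3 TTT and 0 TTC codons, whereas that of Fzd9 held 0 TTT and 4 TTC codons. Over the whole coding sequence UUU made up 68.4% of the Phe codons of Fzd3 and 13.3% of those of Fzd9, and 7.41 to 42.9% in the other 6 Frizzleds, so that Fzd3 was the 1 outside the range of the rest. AAA made up 52.6% of Lys codons in Fzd3 and 42.1% in Fzd9, and G or C stood at the third codon position in 47.6% and 75.7% of codons. Fzd3 had 7 exons and a 3′ UTR of 10270 bases, and Fzd9 had 1 exon and a 3′ UTR of 313 bases.

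Levels of labelled RNA at 0 h were compared between OLs and OPCs to ask which pathway components differed before the chase. Of the 32 members listed in both cell types, 10 were lower in OLs and 1 was higher at an adjusted p under 0.05 (limma on log2(FPKM + 1), Benjamini-Hochberg over all 8177 transcripts). Over all transcripts tested, 15.8% were lower and 13.8% were higher. The lower members comprised 5 Frizzled receptors, the secreted inhibitor Sfrp1, the ubiquitin ligase Znrf3, the scaffold Axin2 and the corepressors Tle3 and Tle4. The median log2 difference was -0.43 over the 32 members and -0.01 over all transcripts. All 11 calls were kept when the libraries were centred on their medians. Because these are bulk cultures, fewer cells of a type and less RNA per cell cannot be told apart. No sample of one cell type overlapped the other for 19 members that were below OPCs in OLs (31.4% of all transcripts) and for 6 that were above (28.0% of all). Leaving out OPC replicate 3 reduced the 11 calls to 4, and those among all 8177 transcripts from 2421 to 1263. Without OL replicate 1 or OL replicate 2 fewer calls were left too, among members and over all transcripts. The median log2 difference was then -0.37 and -0.48 for members and 0.04 and -0.07 for all. In these 2 fits the lone OL sample is assumed to vary like the OPCs. Axin2 and Tle4 lost their call without any 1 of these 3 libraries or OPC replicate 2, Csnk1a1 without any 1 of these 3, and Tle3 without OPC replicate 3 or OL replicate 1.

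**Figure D1:**
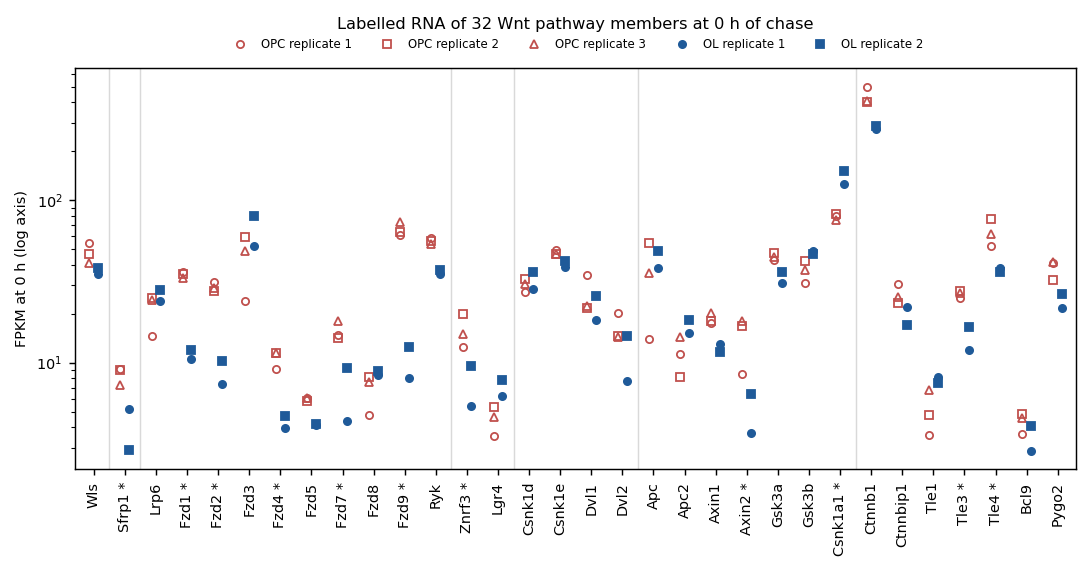
Labelled RNA at 0 h of the 32 members listed in both cell types, in FPKM on a log axis, with 1 point for each OPC (n = 3) and OL (n = 2) replicate and members grouped by role. Fzd9 shows the widest gap, from 60.7 to 73.6 FPKM in OPCs to 8.07 and 12.4 FPKM in OLs, and Csnk1a1 is the 1 member that passed the test in the other direction.

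Among the Frizzled receptors, which bind Wnt directly, Fzd9 had the largest difference. It stood at 60.7, 63.7 and 73.6 FPKM in OPC replicates 1, 2 and 3 and at 8.07 and 12.4 FPKM in OL replicates 1 and 2. The 2 OL samples were far below all 3 OPC samples, a 6.44-fold difference of means (log2 difference -2.60 ± 0.25 SE, limma adjusted p = 0.000352).

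Fzd2 stood at 31.2, 27.8 and 28.7 FPKM in OPCs and at 7.42 and 10.3 FPKM in OLs (-1.63 ± 0.23, limma adjusted p = 0.00176). Fzd1 stood at 36.4, 35.1 and 33.3 FPKM in OPCs and at 10.5 and 11.9 FPKM in OLs (-1.56 ± 0.21, limma adjusted p = 0.00142). For both receptors the OPC replicates lay close together and every OL sample was below them. Fzd1, Fzd2 and Fzd9 were the 3 of the 11 members whose call held under each of the 10 alternatives tried.

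Fzd7 stood at 14.8, 14.1 and 18.02 FPKM in OPCs and at 4.34 and 9.31 FPKM in OLs (-1.16 ± 0.31, limma adjusted p = 0.0252). Fzd4, which is also the receptor for the non-Wnt ligand norrin, stood at 9.18, 11.5 and 11.4 FPKM in OPCs and at 3.95 and 4.67 FPKM in OLs (-1.14 ± 0.22, limma adjusted p = 0.00780). The OL replicates of Fzd7 differed from each other more than those of Fzd4, and without OL replicate 1 neither of these 2 calls passed (Fzd7 -0.68 and Fzd4 -1.04, limma adjusted p = 0.172 and 0.0693). Fzd7 was not called without OPC replicate 3 either.

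The remaining 3 Frizzled receptors did not pass the test. Fzd5 was 5.78 to 6.05 FPKM in OPCs and 4.15 to 4.17 FPKM in OLs (-0.43 ± 0.20, limma adjusted p = 0.140). Fzd8 was 4.74 to 8.15 FPKM in OPCs and 8.39 to 8.93 FPKM in OLs (0.33 ± 0.26, limma adjusted p = 0.361). Fzd3, a receptor known for planar polarity and axon guidance, was 24.1, 59.0 and 48.5 FPKM in OPCs and 51.9 and 79.9 FPKM in OLs (0.64 ± 0.39, limma adjusted p = 0.245). The OPC and OL samples of Fzd3 overlapped, with OPC replicate 1 the lowest of the 5.

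The make-up of the Frizzled pool differed accordingly. The 8 member receptors, without Fzd10, which is described further on, summed to 213 ± 22.5 FPKM in OPCs (SD, n = 3) and to 120 ± 30.4 FPKM in OLs (SD, n = 2). Fzd9 made up 31.0 ± 2.38% of that sum in OPCs and 8.47 ± 0.419% in OLs, while Fzd3 made up 20.1 ± 6.74% and 54.5 ± 2.73%. By sample, the Fzd3 share was 12.9, 26.2 and 21.4% in OPCs and 52.6 and 56.4% in OLs, with no overlap between the cell types. With 3 against 2 samples no exact permutation test of a share can pass 0.05, and none was run.

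**Figure D2:**
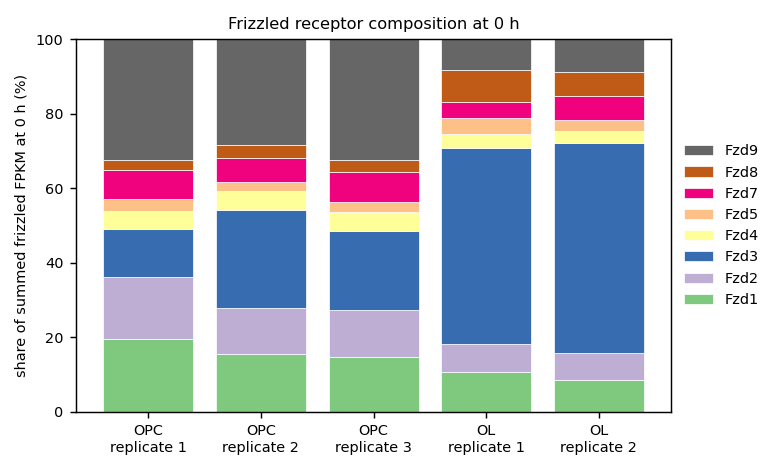
Share of each of the 8 listed Frizzled receptors in their summed FPKM at 0 h, in percent, with 1 stacked bar for each OPC and OL replicate. Fzd9 takes 28.3 to 32.4% of the OPC bars and 8.18 to 8.77% of the OL bars, and Fzd3 takes over most of the OL bars at 52.6 and 56.4%.

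Of the other receptors, Ryk, a Wnt-binding receptor with an inactive kinase domain, stood at 53.8 to 58.7 FPKM in OPCs and 35.3 to 37.4 FPKM in OLs. Its samples did not overlap, but the difference missed the threshold (-0.61 ± 0.20, limma adjusted p = 0.0544). The co-receptor Lrp6 was 14.7 to 24.99 FPKM in OPCs and 24.0 to 27.8 FPKM in OLs (0.31 ± 0.28, limma adjusted p = 0.428), with overlapping samples. Its relative Lrp5, listed in OPCs alone, was at 5.76 to 7.15 FPKM. Ror2, a Wnt5a receptor listed in OLs alone, was at 2.19 and 1.23 FPKM.

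Receptor levels at the membrane are limited by Znrf3, which marks Frizzled and LRP6 for removal, and protected by Lgr4, which binds R-spondin. Znrf3 stood at 12.5, 19.8 and 15.1 FPKM in OPCs and at 5.38 and 9.49 FPKM in OLs, with no overlap (-1.02 ± 0.30, limma adjusted p = 0.0349). Without OL replicate 1 the Znrf3 difference was -0.66 (limma adjusted p = 0.239), and it did not pass without OPC replicate 2 or 3 either. Lgr4 was 3.52 to 5.30 FPKM in OPCs and 6.19 to 7.86 FPKM in OLs, and the difference did not pass (0.56 ± 0.24, limma adjusted p = 0.114).

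Outside the cell, Sfrp1 encodes a secreted protein that binds Wnt. Sfrp1 stood at 9.13, 9.05 and 7.24 FPKM in OPCs and at 5.18 and 2.88 FPKM in OLs, all OL samples below all OPC samples (-0.95 ± 0.26, limma adjusted p = 0.0303). Without OL replicate 2 the Sfrp1 difference was -0.61 (limma adjusted p = 0.195), and it did not pass without OPC replicate 2 or 3 either. Wls, the carrier that takes Wnt to the cell surface, was 40.9 to 54.7 FPKM in OPCs and 35.4 to 38.3 FPKM in OLs (-0.35 ± 0.22, limma adjusted p = 0.265). Porcn, the enzyme that attaches the lipid to Wnt, was listed in OLs alone, at 11.7 and 12.1 FPKM.

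None of the 4 transducers listed in both cell types passed. Their log2 differences ranged from -0.56 for Dvl2 to 0.10 for Csnk1d. Dvl1, which relays the signal from Frizzled, was 21.7 to 34.6 FPKM in OPCs and 18.2 to 25.7 FPKM in OLs. Csnk1e, a casein kinase 1 that phosphorylates Dishevelled, was 46.6 to 49.6 FPKM in OPCs and 39.0 to 42.3 FPKM in OLs. Dvl3 and Nkd1, a Dishevelled-binding inhibitor, were listed in OLs alone, at 9.64 and 10.9 FPKM and at 1.60 and 1.60 FPKM.

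In the destruction complex 1 member was higher and 1 lower in OLs. Csnk1a1, the casein kinase 1α that primes β-catenin for GSK3, stood at 79.6, 82.5 and 75.3 FPKM in OPCs and at 126 and 151 FPKM in OLs (0.80 ± 0.21, limma adjusted p = 0.0254). Axin2, a scaffold that is itself a widely used Wnt target, stood at 8.56, 16.8 and 17.9 FPKM in OPCs and at 3.67 and 6.36 FPKM in OLs (-1.33 ± 0.35, limma adjusted p = 0.0252). Neither gene had overlapping samples, although OPC replicate 1 of Axin2 was near the higher OL sample. With the replicate number as a block Csnk1a1 was not called (limma adjusted p = 0.108).

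Axin1, Gsk3a, Gsk3b, Apc and Apc2 did not pass, with log2 differences from -0.56 for Axin1 to 0.57 for Apc2. Apc was 14.0, 54.7 and 35.6 FPKM in OPCs, the widest relative spread within the OPC group among members listed in both cell types, and 38.2 and 48.7 FPKM in OLs. OPC replicate 1 was the lowest of the 5 samples for Apc and also for Gsk3b, Csnk1d, Lrp6, Fzd3, Fzd8, Lgr4 and Tle1.

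Among β-catenin and its partners, Tle3 and Tle4 encode Groucho-family corepressors that bind TCF factors. Tle3 stood at 24.8, 27.6 and 26.9 FPKM in OPCs and at 11.9 and 16.6 FPKM in OLs (-0.86 ± 0.23, limma adjusted p = 0.0252). Tle4 stood at 52.4, 77.1 and 62.0 FPKM in OPCs and at 38.1 and 36.3 FPKM in OLs (-0.75 ± 0.24, limma adjusted p = 0.0473). With the replicate number as a block Tle3 and Tle4 were not called (limma adjusted p = 0.0755 and 0.116). For both genes the OL samples lay below every OPC sample, and the third listed family member, Tle1, was at 3.58 to 6.83 FPKM and 7.45 to 8.12 FPKM (0.57 ± 0.27, limma adjusted p = 0.141).

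Ctnnb1, which encodes β-catenin, was the member with the highest level in every sample, at 501, 403 and 405 FPKM in OPCs and 273 and 288 FPKM in OLs. Its samples did not overlap, but the difference missed the threshold (-0.63 ± 0.22, limma adjusted p = 0.0611). Pygo2, which with Bcl9 joins β-catenin to chromatin, was 32.1 to 41.8 FPKM in OPCs and 21.7 to 26.5 FPKM in OLs (-0.65 ± 0.23, limma adjusted p = 0.0683). Of the DNA-binding partners, Tcf7 was listed in OPCs alone at 3.28 to 5.85 FPKM and Tcf7l1 in OLs alone at 10.1 and 8.90 FPKM.

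A further list of 80 pathway genes, none of them members, held 45 that were listed in both cell types. Of these, 4 were higher and 9 lower in OLs at 0 h, against 13.8% and 15.8% of all transcripts, and the median log2 difference was 0.08 against -0.01 for all. Tcf7l2, the TCF factor best known in oligodendrocytes, was 15.6, 25.9 and 19.7 FPKM in OPCs and 91.3 and 71.7 FPKM in OLs (1.97 ± 0.27, limma adjusted p = 0.00163). Lrp4, a co-receptor relative that binds inhibitors of the pathway, also passed in that direction (1.38 ± 0.31, limma adjusted p = 0.0141). A ninth Frizzled, Fzd10, was 18.5 to 23.5 FPKM in OPCs and 1.90 and 3.65 FPKM in OLs (-2.53 ± 0.27, limma adjusted p = 0.000513).

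The ligand Wnt7b was 60.2 to 100.1 FPKM in OPCs and 20.5 and 32.8 FPKM in OLs (-1.55 ± 0.30, limma adjusted p = 0.00783). Dact1, a Dishevelled-binding protein, and Celsr1, a planar polarity cadherin, were also lower, by log2 differences of -1.74 ± 0.35 and -1.60 ± 0.30 (limma adjusted p = 0.00915 and 0.00685).

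Of 12 widely used target genes, 7 were listed in both cell types, and 5 of the 7 were lower in OLs, against 15.8% of all transcripts, with a median log2 difference of -1.88 against -0.01 for all. Ccnd2 was 157 to 214 FPKM in OPCs and 10.1 and 18.6 FPKM in OLs (-3.62 ± 0.29, limma adjusted p = 0.000237). The others were Birc5 (-2.72 ± 0.50), Ccnd1 (-2.49 ± 0.27), Cd44 (-1.88 ± 0.36) and Myc (-1.04 ± 0.25). Ccnd1 and Ccnd2, which encode cyclins D, and Birc5, which encodes survivin, also belong to the cell division programme.

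The chase was then examined within each cell type, to ask which members declined over 6 h. Slopes of log2(FPKM + 1) per hour were fitted with limma over all time points with the replicate as a block. In OPCs 31 of 34 members fell, against 81.7% of all 8530 transcripts, with a median slope of -0.48 per h for members and -0.38 for all. In OLs 29 of 37 members fell, against 68.4% of all 9751 transcripts, with median slopes of -0.27 and -0.20 per h. These slopes stand on the deposited spike-in scale. When each time point was instead centred on the 0 h median, 9 members fell and 4 rose in OPCs, against 13.9% and 39.8% of all transcripts. In OLs 5 members fell and 9 rose, against 13.8% and 31.2% of all.

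At 6 h of the OPC chase, replicate by replicate, the median member retained 9.49, 6.46 and 10.7% of its 0 h level, against 14.4, 11.0 and 17.7% for the median transcript. In the same order the OL replicates gave 26.1 and 23.0% for the median member, against 31.5 and 36.6% for all. The median member was thus below the median transcript at 6 h in each of the 5 replicates. At earlier times it was above in 3 samples, at 1 h in OPC replicate 3 (82.5 against 75.4%) and OL replicate 1 (65.4 against 64.0%) and at 2 h in OL replicate 2 (66.1 against 62.8%).

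**Figure D3:**
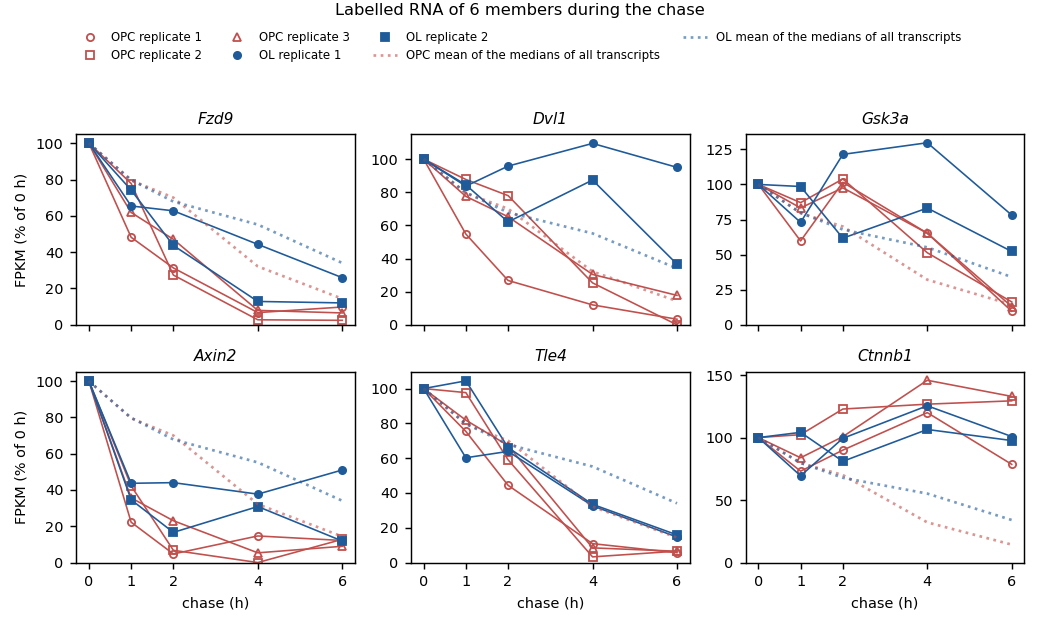
Percent of the 0 h FPKM remaining at 1, 2, 4 and 6 h of chase for selected members, with 1 line for each OPC and OL replicate and, dotted, the replicates' mean of the median over all transcripts. Gsk3a and Dvl1 end lower in the OPC replicates than in the OL replicates, while Ctnnb1 stays near its 0 h level, between 78.6 and 133% at 6 h.

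Ctnnb1, Wls and Sfrp1 passed the test in neither cell type. Ctnnb1 stood at 78.6, 129 and 133% of its 0 h level after 6 h in OPCs and at 101 and 97.6% in OLs. Wls stood at 60.7, 84.2 and 94.2% in OPCs and at 84.6 and 83.6% in OLs. Sfrp1, at a 0 h level under 10 FPKM in all samples, ranged from 70.2 to 204%. Ctnnb1 was thus above its 0 h level after 6 h in 2 of 3 OPC replicates and below it in the third, and Wls was below it in all 5 samples.

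Axin2 and Pygo2 were low early in the OPC chase. Axin2 stood at 4.74, 6.75 and 23.0% after 2 h in OPCs and at 44.0 and 16.6% in OLs. Pygo2 stood at 9.05, 17.3 and 22.1% after 2 h in OPCs and at 36.2 and 54.3% in OLs. The Axin2 slope fell by 0.40 ± 0.10 per h in OPCs and by 0.17 ± 0.06 per h in OLs (limma adjusted p = 0.00139 and 0.0285), and on the centred scale it was positive in both. Without the 6 h libraries the OPC slope of Axin2 was -0.77 per h. Its OL slope was -0.25 per h without OL replicate 1 and -0.082 per h without OL replicate 2, where it did not pass (limma adjusted p = 0.0437 and 0.409).

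All 11 receptors and co-receptors tested in OPCs fell, against 81.7% of all transcripts, and so did all 11 tested in OLs, against 68.4%. On the centred scale only Fzd1 and Fzd9 of the 11 still passed in OPCs and only Lrp6 of the 11 in OLs, and the slopes of Fzd3, Fzd5, Fzd8 and Ryk in OPCs and of Fzd3, Fzd4, Ryk and Ror2 in OLs turned positive. Fzd9 had a slope of -0.71 ± 0.07 per h in OPCs and -0.34 ± 0.05 per h in OLs, and Fzd3 one of -0.36 ± 0.06 and -0.17 ± 0.04 per h. The OL call of Fzd3 ended without the 6 h libraries (-0.11 per h, limma adjusted p = 0.215). Without OL replicate 1 the OL slopes of Ryk and Ror2 were -0.11 and -0.18 per h and did not pass. Without OL replicate 2 those of Fzd3 and Ror2 were -0.15 and -0.17 per h and did not pass. Tle4 had slopes of -0.72 ± 0.07 and -0.42 ± 0.04 per h, and it passed in both cell types on the centred scale as well. The order of the slopes is not given, since it changed with the pseudocount.

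In OPCs all 7 destruction complex members and all 4 transducers fell, against 81.7% of all transcripts. On the centred scale Axin1 was the 1 of the 7 that still passed there, as did all 4 transducers. In OLs Gsk3a, Dvl1 and Dvl3 did not pass, nor did Ctnnbip1, which blocks the binding of β-catenin to TCF, or Porcn. The slopes of these 5 in OLs ranged from -0.11 for Ctnnbip1 to -0.0034 per h for Porcn. The OL slope of Dvl2 was -0.28 per h, and -0.17 per h without OL replicate 2, where it did not pass. Leaving out the 6 h libraries removed the OPC call of Gsk3a, whose values had stood at 102, 104 and 97.6% of 0 h after 2 h.

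Half-lives had been fitted by the authors to each replicate, with a ceiling of 6 h, and were compared on a log2 scale. Of the 32 members, 1 was longer in OLs at an adjusted p under 0.05 (limma over 8112 transcripts), against 3.39% of all, and 0 were shorter. An unadjusted p under 0.05 was reached by 12 members, against 23.0% of all. The median log2 difference was 0.68 for members and 0.37 for all transcripts. OL values lay above OPC values without overlap for 19 members, against 35.9% of all transcripts, and below for 0. Centring the replicates on their medians moved the median difference of all transcripts to -0.53 and that of members to -0.22. No member was then called, and 1 of all 8112 transcripts was.

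**Figure D4:**
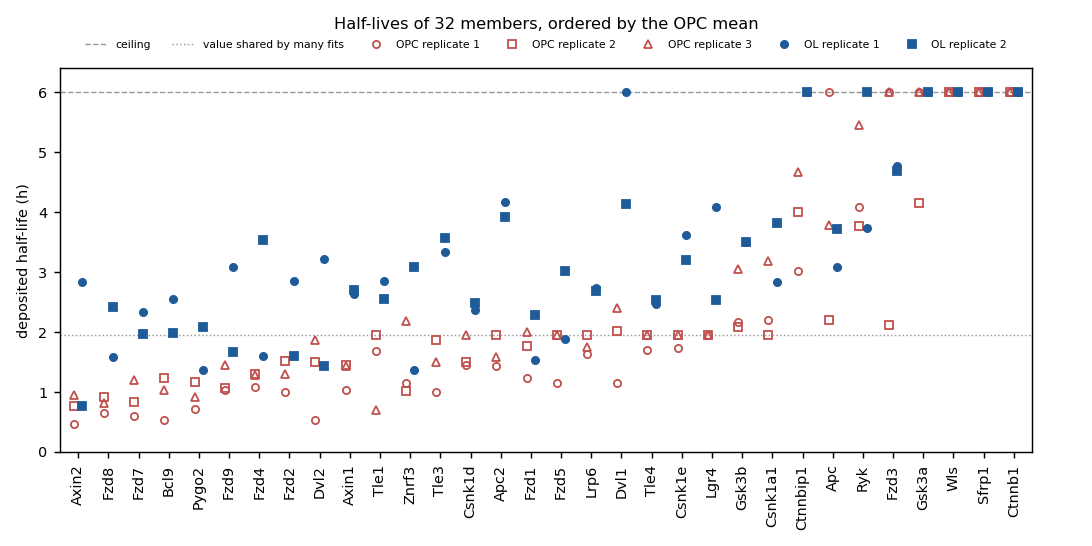
Half-lives of the 32 members in hours, with 1 point for each OPC (n = 3) and OL (n = 2) replicate and the 6 h ceiling drawn as a line. OL points lie above all OPC points for 19 members, and Ctnnb1, Wls and Sfrp1 sit at the ceiling in all 5 replicates.

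Csnk1e was the member that passed, with half-lives of 1.74, 1.96 and 1.96 h in OPCs and 3.61 and 3.20 h in OLs, which did not overlap (0.86 ± 0.09, limma adjusted p = 0.0459). In OPC replicates 2 and 3 its value was the same 1.957 h. That number was shared by many transcripts, because a fit by least absolute deviations that passes through none of the time points depends only on which of them lie above it and which below. The 4 such shared values (1.957, 1.858, 0.760 and 0.704 h, within 0.001 h) made up 5.87, 27.2 and 8.75% of all OPC half-lives by replicate, and 0.928 and 2.62% of those of OLs.

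Among the 32 members, 1, 9 and 5 half-lives were shared values in the 3 OPC replicates and 0 in either OL replicate. Lgr4 stood at 1.957 h in all 3. Transcripts with at least 2 shared OPC values made up 7.83% of all those tested and 25.8% of the 275 called longer. Refitted by least squares, Csnk1e gave a log2 difference of 0.53 (limma adjusted p = 0.363). No member passed in that refit, and 24 of all 8112 transcripts did. The Csnk1e difference was 0.10 when refitted without the 6 h libraries and -0.047 when centred on the median, and it passed in neither. Leaving out OPC replicate 1 or 3 gave 2 longer half-lives, leaving out OPC replicate 2 gave 1 longer and 1 shorter, that of Fzd3, and Csnk1e was not called without any 1 of the 5 replicates.

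The largest half-life differences did not pass the test. Dvl1 had 1.15, 2.02 and 2.41 h in OPCs and 6 and 4.14 h in OLs (1.49 ± 0.43, limma adjusted p = 0.171). Bcl9 had 0.531, 1.23 and 1.04 h in OPCs and 2.56 and 1.99 h in OLs (1.36 ± 0.46, limma adjusted p = 0.217). Fzd7 had 0.599, 0.833 and 1.19 h in OPCs and 2.34 and 1.96 h in OLs (1.35 ± 0.36, limma adjusted p = 0.151). In each of these genes both OL values were above every OPC value.

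Apc2, the neuronal relative of Apc, came nearest to the threshold after Csnk1e, with 1.43, 1.96 and 1.58 h in OPCs and 4.17 and 3.93 h in OLs (1.301 ± 0.163, limma adjusted p = 0.0559). Fzd1 had half-lives of 1.23 to 2.01 h in OPCs and 1.53 and 2.29 h in OLs, which overlapped. Fzd9 had 1.03 to 1.44 h in OPCs and 3.08 and 1.67 h in OLs, which did not. Apc was the 1 member with a negative difference, from half-lives of 6, 2.20 and 3.78 h in OPCs and 3.08 and 3.72 h in OLs (-0.12 ± 0.51, limma adjusted p = 1). For members the median was 1.45, 1.96 and 1.96 h among OPC samples and 2.97 and 3.05 h among OL samples. Each of these medians was below that of all transcripts (2.35, 2.08, 2.83, 4.54 and 4.44 h).

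The difference in decline, the OL slope minus the OPC slope of log2(FPKM + 1) per hour, used all time points and no ceiling. Of the 32 members, 13 declined more slowly in OLs and 0 more quickly (limma adjusted p under 0.05 over 8177 transcripts), against 23.7% of all transcripts slower in OLs. The 13 comprised all 4 transducers tested (Dvl1, Dvl2, Csnk1d and Csnk1e), 3 of 7 destruction complex members (Gsk3a, Apc2 and Axin1), 4 of 10 receptors (Fzd1, Fzd4, Fzd9 and Ryk) and 2 of 7 nuclear partners (Tle3 and Tle4). The median difference was 0.22 per h for members and 0.14 for all. On the scale centred on the 0 h median these medians were 0.01 and -0.07, and 1 member, Dvl1, was called (0.30 per h, limma adjusted p = 0.0462). Of all 8177 transcripts, 199 were then called slower in OLs and 812 quicker. With a pseudocount of 0.1 in place of 1 FPKM 3 members were called, Apc2, Csnk1e and Tle1, of which the first 2 were among the 13. At that pseudocount 569 of all 8177 transcripts were called. Without OL replicate 1 or without OL replicate 2 the median difference was 0.19 and 0.23 per h for members, and 0.13 and 0.15 for all. The 13 calls needed both OL replicates, as nearly all calls among all transcripts did. A single OL sample remains in those 2 fits, so their spread comes from the OPC replicates and the OL sample is assumed to vary like them. Leaving out the 6 h libraries raised the differences of Axin1, Fzd1, Fzd4, Fzd9 and Tle4, all still called, to 0.46, 0.45, 0.48, 0.56 and 0.55 per h. Apc2 and Csnk1d also had larger differences without those libraries, 0.30 and 0.42 per h, but missed the threshold (limma adjusted p = 0.0682 and 0.0527), while the calls of Gsk3a and Ryk ended with smaller differences.

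**Figure D5:**
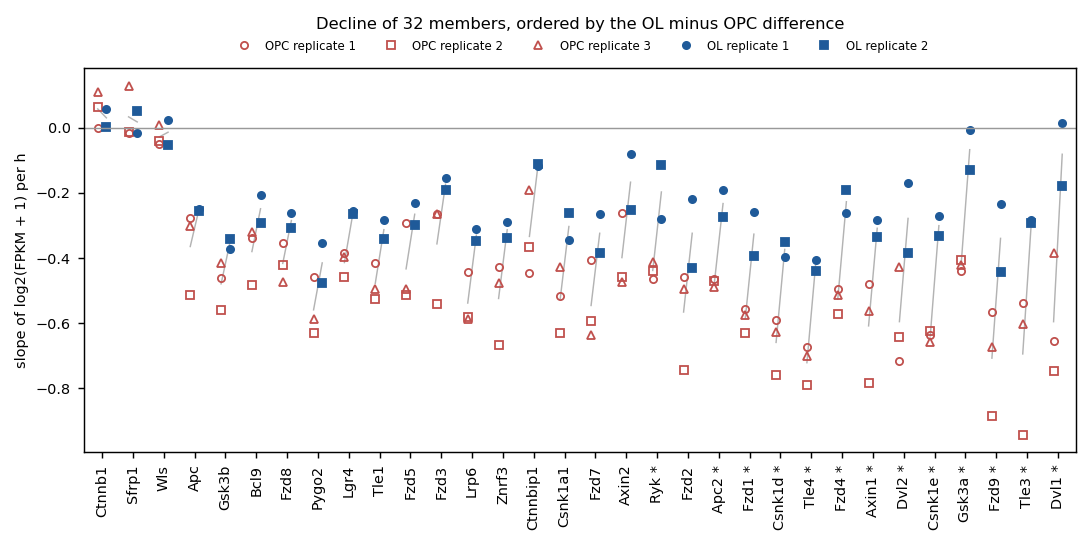
Slopes of log2(FPKM + 1) per hour over the chase for the 32 members, with 1 point for each OPC (n = 3) and OL (n = 2) replicate and members ordered by the OL minus OPC difference. OL slopes lie above every OPC slope for 27 of the 32 members, against 50.9% of all transcripts, and the points of Ctnnb1, Wls and Sfrp1 sit around 0 in both cell types.

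Dvl1 had slopes of -0.66, -0.75 and -0.38 per h in OPCs and 0.016 and -0.18 per h in OLs (difference 0.51 ± 0.11, limma adjusted p = 0.00866). After 6 h it stood at 3.38, 0 and 17.8% of its 0 h level in OPCs and at 95.0 and 36.6% in OLs. Every OL value was above every OPC value on both measures. The 6 h value of Dvl1 in OPC replicate 2 was 0 FPKM, and with a pseudocount of 0.1 FPKM Dvl1 was not called. Dvl2 had slopes of -0.72, -0.64 and -0.43 per h in OPCs and -0.17 and -0.39 per h in OLs (difference 0.32 ± 0.10, limma adjusted p = 0.0394). The Dvl2 difference was 0.55 per h with a pseudocount of 0.1 FPKM and 0.21 per h without OL replicate 1, and passed in neither (limma adjusted p = 0.162 and 0.354).

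The 2 Dishevelled-directed casein kinases were steadier between replicates. Csnk1e had slopes of -0.64, -0.62 and -0.66 per h in OPCs and -0.27 and -0.33 per h in OLs (difference 0.34 ± 0.08, limma adjusted p = 0.0109). Csnk1d had -0.59, -0.76 and -0.63 per h in OPCs and -0.40 and -0.35 per h in OLs (difference 0.29 ± 0.08, limma adjusted p = 0.0271). After 6 h Csnk1d stood at 3.58 to 6.20% in OPCs and 17.2 to 18.8% in OLs, with no overlap.

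In the destruction complex, Gsk3a, which encodes a kinase of β-catenin, had slopes of -0.44, -0.41 and -0.42 per h in OPCs and -0.0051 and -0.13 per h in OLs (difference 0.36 ± 0.08, limma adjusted p = 0.0105). After 6 h it stood at 9.67, 16.3 and 13.0% in OPCs and at 78.2 and 52.3% in OLs. Without the 6 h libraries the difference was 0.18 per h and did not pass (limma adjusted p = 0.327). Its deposited half-life was at the 6 h ceiling in 2 of 3 OPC replicates and in both OL replicates, so the 2 measures differed for this gene. Its paralogue Gsk3b fell to 13.6 to 17.3% in OPCs and 18.3 to 23.0% in OLs, and its difference did not pass (0.12 ± 0.08, limma adjusted p = 0.271). Axin1 and Apc2 passed, with differences of 0.30 ± 0.09 and 0.24 ± 0.08 per h (limma adjusted p = 0.0389 and 0.0385). With a pseudocount of 0.1 FPKM they were 0.50 and 0.39 per h, and Axin1 no longer passed while Apc2 did (limma adjusted p = 0.188 and 0.0448).

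Of the receptors, Fzd9 had slopes of -0.57, -0.88 and -0.67 per h in OPCs and -0.24 and -0.44 per h in OLs (difference 0.37 ± 0.10, limma adjusted p = 0.0245). Fzd4 had -0.50, -0.57 and -0.51 per h in OPCs and -0.26 and -0.19 per h in OLs (0.30 ± 0.08, limma adjusted p = 0.0181). Fzd1 and Ryk passed with 0.26 ± 0.08 and 0.24 ± 0.08 per h (limma adjusted p = 0.0348 and 0.0481), but without the 6 h libraries the Ryk difference was 0.00087 per h (limma adjusted p = 0.998), and without OL replicate 2 it was 0.16 per h (limma adjusted p = 0.368). Fzd1, Fzd4 and Fzd9 were thus lower at 0 h in OLs and also declined more slowly there. They were at 3.95 to 12.4 FPKM in OLs, and with a pseudocount of 0.1 FPKM the differences were 0.25, 0.41 and 0.36 per h, and none of the 3 calls was kept (limma adjusted p = 0.118, 0.0572 and 0.167).

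Tle3 had slopes of -0.54, -0.94 and -0.60 per h in OPCs and -0.28 and -0.29 per h in OLs (difference 0.41 ± 0.11, limma adjusted p = 0.0208). With a pseudocount of 0.1 FPKM the Tle3 difference was 0.63 per h and did not pass (limma adjusted p = 0.178). Tle4 had -0.67, -0.79 and -0.70 per h in OPCs and -0.40 and -0.44 per h in OLs (0.30 ± 0.08, limma adjusted p = 0.0191). After 6 h Tle4 stood at 5.62, 6.55 and 6.51% in OPCs and at 14.7 and 15.9% in OLs, close within each cell type and apart between them.

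The 3 members with no decline showed no detectable difference between the cell types. The differences were -0.03 ± 0.08 per h for Ctnnb1, -0.02 ± 0.08 for Sfrp1 and 0.01 ± 0.08 for Wls (limma adjusted p = 0.826, 0.909 and 0.911).

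Sequence features that bear on RNA decay were then counted in the member transcripts, as a description without a test. UAUUUAU, the core of an AU-rich element, was searched on the sense strand of the 3′ UTR as TATTTAT. It was present in 16 of the 32 members listed in both cell types (50.0%) and in 30.4% of the 8106 transcripts listed in both with a 3′ UTR. The shorter ATTTA, which lies inside it, was present in 26 of 32 (81.2%) and in 70.9%. The median 3′ UTR was 1752 bases long in members and 1165 bases in all transcripts listed in both. The windows below show TATTTAT in capitals for 3 members that fell in both cell types and for Wls, which did not (GRCm38, sense strand, exonic, 3′ UTR).
Axin2, first site (chr11:108949622-108949646, plus strand): agcctgaacTATTTATtcaaaacat
Axin2, second site (chr11:108949773-108949797, plus strand): ccttactgaTATTTATtgaacagtc
Dvl2 (chr11:70010051-70010075, plus strand): ttgttactcTATTTATtttagtcac
Tle4 (chr19:14449445-14449469, minus strand): tctgtaataTATTTATtttgtttaa
Wls (chr3:159934809-159934833, plus strand): acttttttcTATTTATatcaccaag

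The Axin2 sites began 236 and 387 bases after the stop codon, and those of Dvl2, Tle4 and Wls 468, 274 and 458 bases after it. Members with a short half-life in OPCs such as Axin2 and members at the ceiling such as Wls both held the element, and Fzd9, with OPC half-lives of 1.03 to 1.44 h, held 0.

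Codon use was set side by side for the 10 members lower in OLs at 0 h and the other 22. The median share of codons with G or C at the third position was 71.4% in the 10, ranging from 53.2% to 85.3%, and 58.2% in the 22, ranging from 41.0% to 80.3%, so that the 2 ranges overlapped widely. The median share of UUU among Phe codons was 21.4% and 45.8%, and that of AAA among Lys codons was 22.5% and 35.2%. These medians compare genes chosen by their level, 5 of the 10 are Frizzled receptors of related sequence, and the values are given without a test.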

How the data were processed

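Labelled RNA (5-EU decay-seq) of 15 OPC and 10 OL libraries was analysed, and 1 OPC control library made without biotin was not analysed here. Per the labels, reads were aligned with HISAT2 2.1.0 and quantified with StringTie 1.3.5 on GRCm38, and 1 transcript per gene was listed. The authors deposited FPKM scaled to labelled spike-ins, and half-lives in hours fitted by exponential decay with least absolute deviations. The 0 h columns carry more digits than the later ones, and were read as unscaled FPKM to which the later time points of the replicate were scaled. The study describes spike-in scaling of every time point, and this reading was not tested. Read depth was not given, so no counting error could be computed. Refitting the FPKM matched 98.2 to 99.9% of half-lives within 0.01 h.

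Groups came from the sample titles. Levels, half-lives and slopes were compared with limma 3.58.1 (R 4.3.3), on log2(FPKM + 1) for levels and slopes and on log2 hours for half-lives, with Benjamini-Hochberg adjustment over all transcripts and a threshold of 0.05. The difference in decline compared the slopes of single replicates. The steps were tested on simulated data. Members past the threshold were named, and otherwise the 3 with the largest change. The members, their roles, the lists of 80 pathway and 12 target genes and the marker lists were chosen with earlier results of these data known. Coding sequences and 3′ UTRs came from GENCODE on GRCm38, where all 39 members matched by transcript ID. OPC and OL replicates share numbers. The study states that the OL replicates match 2 of the OPC replicates, but which OPC culture gave rise to which OLs is not given. The deviations of replicates 1 and 2 correlated between cell types at 0.04, -0.06 and -0.07 for levels, half-lives and slopes, so the numbers were not used as pairs.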

Additional observations from a re-analysis of the deposited data

Results flagged for a closer look

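The decline over the chase differed between OPCs and OLs for 13 members by a test of the difference itself (OL minus OPC slope of log2(FPKM + 1) per hour, limma, adjusted over all transcripts), against 23.7% of all transcripts slower in OLs, and all 13 differences were positive. The transducers gave 0.51 for Dvl1, 0.34 for Csnk1e, 0.32 for Dvl2 and 0.29 for Csnk1d. The destruction complex gave 0.36 for Gsk3a, 0.30 for Axin1 and 0.24 for Apc2. The receptors gave 0.37 for Fzd9, 0.30 for Fzd4, 0.26 for Fzd1 and 0.24 for Ryk, and the corepressors gave 0.41 for Tle3 and 0.30 for Tle4. The median difference over all transcripts was 0.14. With 3 and 2 replicates no group was large enough for a check of single outlying samples. Each of the 13 calls needed both OL replicates, and 0 of the 13 held under every alternative tried.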

How the results depend on the processing

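For levels at 0 h, where 11 members were called, 10 were with a pseudocount of 0.1 and 8 with a replicate block, all among the 11, 12 with a filter of 5 FPKM and 14 with an intensity trend, both including the 11, and 4 to 11 without 1 replicate. Csnk1a1, Tle3 and Tle4 lost their level call with the block (adjusted p = 0.108, 0.0755 and 0.116). For half-lives, where 1 member was called, 4 were in unlogged hours, Csnk1e among them, and 0 when centred on the median, without the 6 h libraries, with a replicate block or refitted by least squares, a refit chosen after seeing the data. Without 1 replicate there were 1 to 2 calls, Csnk1e never among them. Csnk1e reversed to -0.047 when centred. For the difference in decline, where 13 members were called, 3 were with a pseudocount of 0.1 (2 of them among the 13), 1 when centred on the 0 h median (Dvl1), 16 in one model (including the 13), 14 without the 6 h libraries (9 among the 13), 14 with a replicate block (11 among the 13, without Apc2 and Ryk, adjusted p = 0.0821 and 0.0576) and 0 to 14 without 1 replicate. The half-life fit with a block called 0 of all 8112 transcripts by limma, with 1554 at an unadjusted p under 0.05. Of the same 8112, 1 was called when centred, 13 without the 6 h libraries and 24 by least squares. For declines, 31 members in OPCs and 29 in OLs were called with no replicate block too, and 31 and 24 to 28 without 1 replicate. Centred on the 0 h median, 13 and 14 were called. Slopes then reversed in OPCs to 0.074 for Apc, 0.040 for Axin2, 0.059 for Bcl9, 0.11 for Ctnnbip1, 0.082 for Fzd3, 0.0055 for Fzd5, 0.022 for Fzd8, 0.017 for Gsk3a, 0.025 for Lgr4, 0.00061 for Ryk and 0.14 for Tcf7, and in OLs to 0.0023 for Apc2, 0.068 for Axin2, 0.062 for Fzd3, 0.0079 for Fzd4, 0.13 for Nkd1, 0.060 for Ror2 and 0.038 for Ryk. Leaving out replicates or the 6 h libraries means fewer samples, a lone OL sample set against OPCs is assumed to vary like them, and a common shift is removed by centring. The cause of the other changes was not tested. Without counts, the precision of low values is unknown, and 3 against 2 replicates limit every comparison.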

Other observations

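The pathway genes outside the member list followed the chase as well. In OPCs 42 of 47 fell and 1 rose, against 81.7% of all transcripts that fell, and in OLs 38 of 49 fell, against 68.4% of all. Of the 45 listed in both cell types, 11 declined more slowly in OLs and 0 more quickly, a share of 24.4% against 23.7% of all transcripts. The ligand Wnt7b, listed at 60.2 to 100.1 FPKM at 0 h in OPCs and 20.5 and 32.8 FPKM in OLs, had half-lives of 2.05, 1.96 and 1.96 h in OPCs and 6 and 4.63 h in OLs (log2 difference 1.41 ± 0.13, limma adjusted p = 0.0396). Of these values, 2 in OPCs are the 1.957 h shared by many transcripts, and 1 in OLs is at the 6 h ceiling. Wnt7b kept its call for the difference in decline on the scale centred on the 0 h median (0.24 per h, limma adjusted p = 0.0461), but not its half-life call when centred (0.50, limma adjusted p = 0.246). Vangl2, a planar polarity protein, and Fbxw11, a subunit of the ubiquitin ligase that receives phosphorylated β-catenin, were the other 2 with longer half-lives in OLs. The differences were 1.41 ± 0.16 and 1.27 ± 0.14 (limma adjusted p = 0.0486 and 0.0444). These 3 of 45 genes made up 6.67%, against 3.39% of all transcripts. Vangl2 and Fbxw11 were at the shared 1.957 h in OPC replicate 2, and Vangl2 was at the 6 h ceiling in OL replicate 2. Vangl2 and Fbxw11 lost their half-life calls when centred (limma adjusted p = 0.256 and 0.361), where 1 of all 8112 transcripts was called.

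Of the target genes, 7 of 8 fell in OPCs and 6 of 8 in OLs, against the same 81.7% and 68.4%. By limma 0 of 7 passed for half-life, against 3.39% of all transcripts longer in OLs. For the difference in decline 0 of 7 passed too, against 23.7% of all transcripts slower in OLs. Myc, whose RNA is known to be short-lived, had half-lives of 0.459, 0.686 and 0.843 h in OPCs and 0.974 and 2.34 h in OLs. Ccnd2 was at the 6 h ceiling in all 5 replicates while its 0 h level was 12.3-fold lower in OLs on the log2(FPKM + 1) scale. Tle5, the present symbol of Aes, stood at 179, 114 and 140 FPKM in OPCs and 99.8 and 69.1 FPKM in OLs, with half-lives at the ceiling in all 5 replicates.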
